A study of Mus musculus with 4 samples.

Results

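The miR-26 family was represented on the array by 2 miRNA names, mmu-miR-26a and mmu-miR-26b, out of 577 names in all. Every probe whose gene name equalled 1 of these was taken, which gave 2 probes for each paralog and 4 of the 1712 probes on the array. RNA came from A3-1, a mouse embryonic stem cell line grown in DMEM with 20% serum and the cytokine LIF, which holds such cells undifferentiated. The control group (siGFP, 2 arrays) received an siRNA against GFP, a jellyfish protein, and the other group (siLin28a, 2 arrays) an siRNA against Lin28a, and both were harvested 48 h later. The labels give 1 siRNA duplex per group and no untransfected cells, and nothing states that the replicates were separate cultures, so the spread between arrays may be technical. A miRNA array does not read Lin28a mRNA, and the depth of the knockdown was therefore not measured here.

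miR-26a and miR-26b are the 2 mature products of a vertebrate family whose hairpins lie in genes of the CTDSP phosphatases, which act on the tail of RNA polymerase II, and are transcribed with them. Their known targets include Ezh2, the histone methyltransferase of Polycomb complex PRC2, and the family is among the miRNAs that the transcription factor MYC represses. LIN28A is an RNA-binding protein that holds back let-7 maturation by binding the loop of let-7 precursors and recruiting enzymes that add uridines to the RNA 3′ end, and 1 of these enzymes is also known to act on mature miR-26.

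The mature strands, taken from RefSeq (GRCm38.p6), are shown because the paralogs differ so little that the probes must be read against the sequence. Capitals mark the seed, bases 2 to 8, which pairs with targets.

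miR-26a: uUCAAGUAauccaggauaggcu

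miR-26b: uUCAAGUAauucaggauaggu

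Both matched by name, and both carry the seed UCAAGUA. Among 1679 mature mouse sequences searched, 0 others had it, so within that table the 2 members make up the whole seed group. Counted from 1 at the 5′ end, with the base of miR-26a first, the paralogs differ by C11U and C21U. They are identical at 19 of 21 compared bases, and miR-26a has 1 base more at its 3′ end.

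The 2 probes of each paralog end at the same genomic base and differ in how far they reach toward the seed. In the array files, which use build mm9, the targets of the miR-26a probes lie on chromosome 10 at 126432606 to 126432620 (15 bases) and 126432605 to 126432620 (16 bases). Those of miR-26b lie on chromosome 1 at 74440900 to 74440918 (19 bases) and 74440899 to 74440918 (20 bases). The shared end was taken as the last base of the mature strand. For the Mir26b hairpin the last target bases of the 2 arms lie 37 bases apart in the array files, as do the last bases of the 2 arms in RefSeq. The stretch read by the shorter probe of each paralog is given in capitals.

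miR-26a, bases 8 to 22: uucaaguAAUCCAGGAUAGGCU

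miR-26b, bases 3 to 21: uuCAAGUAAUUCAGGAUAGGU

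The longer probes start at base 7 for miR-26a and at base 2 for miR-26b. All 4 probes thus cover both differing positions. Cross-hybridisation between paralogs that differ at 2 bases was not tested, and since the probes differ in length, their brightness does not rank the paralogs by abundance.

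miR-26a is made from 2 hairpins with the same mature 5′ arm and miR-26b from 1, so a miR-26a signal cannot be assigned to either locus, although the files give it the chromosome 10 position only. In GRCm38.p6, Mir26a-1 lies on chromosome 9 at 119031796 to 119031885 within the bounds of Ctdspl, Mir26a-2 on chromosome 10 at 126995530 to 126995613 within Ctdsp2, and Mir26b on chromosome 1 at 74394310 to 74394394 within Ctdsp1, all on the + strand. The host transcripts are not measured by this array. The hairpins are printed with the mature 5′ arm in capitals because the stretch that follows it, up to the other arm, is the loop, the part through which LIN28A recognises let-7 precursors.

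Mir26a-1: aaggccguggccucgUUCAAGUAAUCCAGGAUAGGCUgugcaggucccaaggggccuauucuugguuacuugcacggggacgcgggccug

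Mir26a-2: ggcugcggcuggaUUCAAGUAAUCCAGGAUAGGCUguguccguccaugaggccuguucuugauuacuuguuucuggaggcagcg

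Mir26b: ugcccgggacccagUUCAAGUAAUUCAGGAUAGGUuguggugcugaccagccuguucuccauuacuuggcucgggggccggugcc

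The letters GGAG, the core of the motif known from let-7 loops, were searched on the RNA strand. They occurred in 0 of the 3 loops, which hold 17, 16 and 15 bases in the order printed, and once outside the loop, near the 3′ end of Mir26a-2. Of 644 mouse hairpins with 2 annotated arms, 52 (8.07%) held GGAG in the loop. A search for 4 letters in this window describes the sequence and nothing more.

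The labelled cell type was checked on the miR-290 cluster, the main miRNA cluster of mouse embryonic stem cells, of which 10 of 11 listed members were detected on all 4 arrays by the scanner software. Detected on all 4 arrays were also 2 of 6 fibroblast markers on the array, 3 of 4 neural markers, 0 of 4 muscle markers and 2 of 4 blood markers. After the scaling given next, mean log2 levels of the detected miR-290 members ran from -3.14 to 5.67. Those of the detected neural markers ran from -3.23 to -1.51. The detected fibroblast markers lay at -3.35 and -0.17 and the blood markers at -3.03 and -2.10. Brightness of unlike probes is no ratio of molecules, and dim signals were floored at -3.40. The siLin28a arrays were brighter. The scale factor of each array, the 75th percentile of probes well above background on every array, came to 226 and 220 (siGFP) and to 248 and 265 (siLin28a), and signals below were divided by it.

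miR-26a was well above background on every array. Each probe was printed in 10 spots per array, and of 80 miR-26a spots over the 4 arrays 5 were left out as outliers and all 75 others were well above background. Before scaling, the 15-base probe read 168 and 154 intensity units with siGFP, against 196 and 213 with siLin28a. The 16-base probe read 229 and 203 against 249 and 286. Both probes were therefore dimmest on siGFP replicate 2 and brightest on siLin28a replicate 2.

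After scaling, the 15-base probe of miR-26a stood at 0.744 and 0.699 with siGFP and at 0.791 and 0.805 with siLin28a, so its groups did not overlap. The 16-base probe stood at 1.01 and 0.925 against 1.00 and 1.08, and there siLin28a replicate 1 lay just below siGFP replicate 1. The ratio of the 16-base to the 15-base probe was 1.36 and 1.32 with siGFP and 1.27 and 1.34 with siLin28a. The 2 probes thus kept nearly the same ratio to each other on every array.

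miR-26b was also well above background throughout, in all 73 spots kept of 80, at lower signals. The 19-base probe read 57.4 and 38.9 units with siGFP and 52.0 and 58.1 with siLin28a. The 20-base probe read 78.1 and 56.3 against 75.7 and 80.6. With both probes siGFP replicate 2 was the dimmest array and the other 3 lay close together.

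After scaling, the 19-base probe of miR-26b stood at 0.254 and 0.177 with siGFP and at 0.210 and 0.219 with siLin28a. The 20-base probe stood at 0.346 and 0.256 against 0.305 and 0.304. Both siLin28a arrays lay between the 2 siGFP arrays for each probe. The ratio of the 20-base to the 19-base probe stayed between 1.36 and 1.46 over the 4 arrays.

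**Figure D1:**
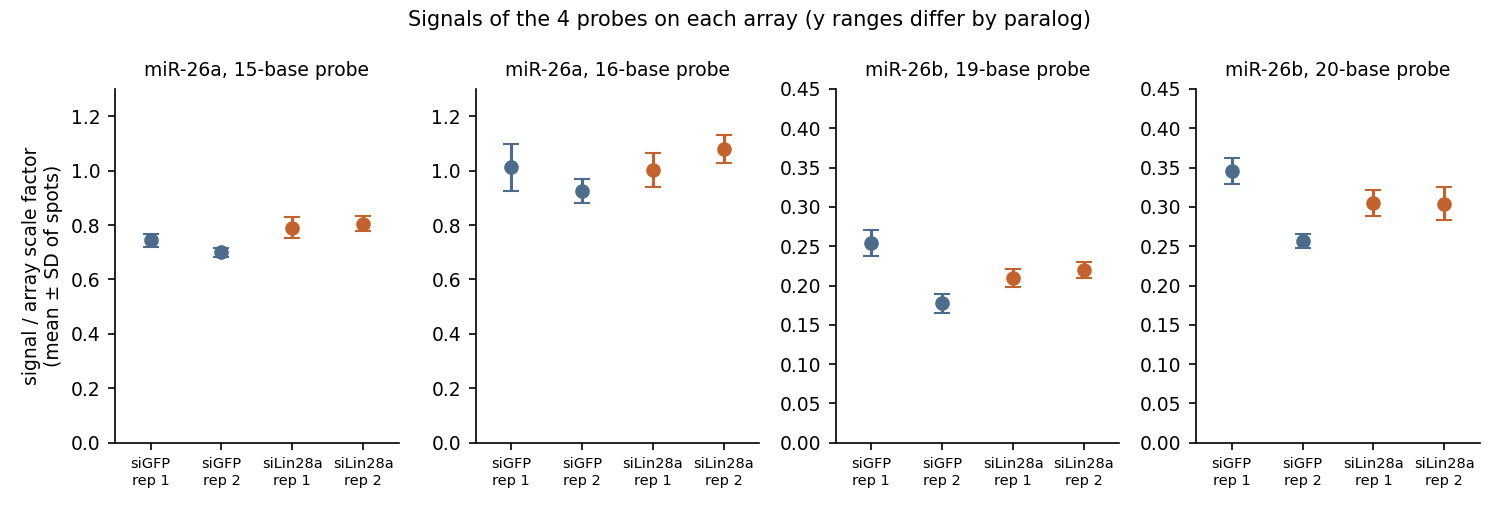
Signal of each miR-26 probe divided by the array's scale factor (y axis, no unit) on each of the 4 arrays (x axis). Points are means over the 8 to 10 spots kept and bars are the SD of those spots, which shows technical spread within an array only. The miR-26a probes lie between 0.699 and 1.08, and for both miR-26b probes the 2 siGFP arrays lie outside the siLin28a arrays.

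The spread between spots was small beside the gap between the siGFP arrays for miR-26b. The coefficient of variation over spots ranged from 2.34% to 8.66% over the 16 combinations of probe and array, with a median of 4.78%. For the 20-base probe the 9 spots of siGFP replicate 1 ran from 72.0 to 84.6 units and the 9 of siGFP replicate 2 from 53.9 to 59.1. The 2 sets of spots did not overlap, nor did those of the 19-base probe, at 50.4 to 62.5 and 35.7 to 42.8.

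The replicates of the control group thus differed for miR-26b by far more than they did for miR-26a. Scaled, siGFP replicate 1 exceeded replicate 2 by 1.43 times for the 19-base probe and 1.35 times for the 20-base probe of miR-26b. The corresponding ratios were 1.06 and 1.09 for the miR-26a probes. On the log2 scale the gap was 0.48 for miR-26b and 0.11 for miR-26a. Only 18 of the 231 tested miRNAs had a larger gap between these 2 arrays than miR-26b, and the median gap was 0.14. Between the siLin28a arrays the gap was 0.03 for miR-26b and 0.07 for miR-26a, against a median of 0.15.

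The comparison of siLin28a with siGFP asks whether the level of mature miR-26 depends on LIN28A in embryonic stem cells. Neither paralog passed the test. In bulk RNA, fewer cells that hold a miRNA and less of it per cell cannot be told apart. The log2 level of miR-26a, averaged over its 2 probes, was -0.20 and -0.31 with siGFP, against -0.17 and -0.10 with siLin28a. The groups did not overlap, but the gap between them was narrow, since siLin28a replicate 1 lay close to siGFP replicate 1. The group means were -0.26 ± 0.08 and -0.13 ± 0.05 (SD, n = 2 each). The difference, siLin28a minus siGFP, was 0.13 on the log2 scale (SE 0.08, 95% interval -0.11 to 0.36, limma adjusted p = 0.370), which is 1.09-fold with an interval from 0.927 to 1.28, and it was -0.05 with the arrays scaled over all probes. With normexp background correction, which here adds an offset of 50 intensity units to each spot, it was 0.06. With no scaling between arrays, where the median of all tested miRNAs was 0.19, it was 0.33 with a 95% interval from 0.03 to 0.63.

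The log2 level of miR-26b was -1.75 and -2.23 with siGFP and -1.98 and -1.95 with siLin28a. Both siLin28a values lay between the siGFP values. The group means were -1.99 ± 0.34 and -1.97 ± 0.02 (SD, n = 2 each). The difference was 0.02 (SE 0.21, 95% interval -0.58 to 0.62, limma adjusted p = 0.950), which is 1.02-fold with an interval from 0.671 to 1.54. Its sign was not stable, at 0.26 without siGFP replicate 1 and -0.21 without siGFP replicate 2. With all 4 arrays kept it was also below 0 with the arrays scaled over all probes (-0.15), with normexp (-0.15), with quantile normalization (-0.07), with the total gene signal (-0.03), with the authors' deposited table (-0.03) and with the median over spots (-0.0016).

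Over all miRNAs, 2 of 231 (0.866%) passed limma at the adjusted threshold of 0.05, while 57 (24.7%) had a p under 0.05 before adjustment. The 2 that passed, let-7a and let-7f, were at the floor applied to dim signals on both siGFP arrays. The miR-26 paralogs, 0 of 2 at either threshold, had unadjusted limma p values of 0.204 and 0.913. Groups lay apart in either direction in 61.5% of tested miRNAs and with higher siLin28a values, as for miR-26a, in 30.7%, so this feature of miR-26a is a common one in these data. The absolute difference of miR-26a ranked 160th and that of miR-26b 219th among the 231, and the median absolute difference was 0.23. The SE of miR-26a, 0.08, was smaller than the median SE of 0.13, and that of miR-26b, 0.21, was larger. In the reported fit the intervals ran from 0.927 to 1.28 of the control level for miR-26a and from 0.671 to 1.54 for miR-26b. These limits moved with the scaling. With the arrays scaled over all probes the lower log2 limits were -0.28 for miR-26a and -0.77 for miR-26b. With no scaling between arrays the upper log2 limits were 0.63 and 0.87.

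**Figure D2:**
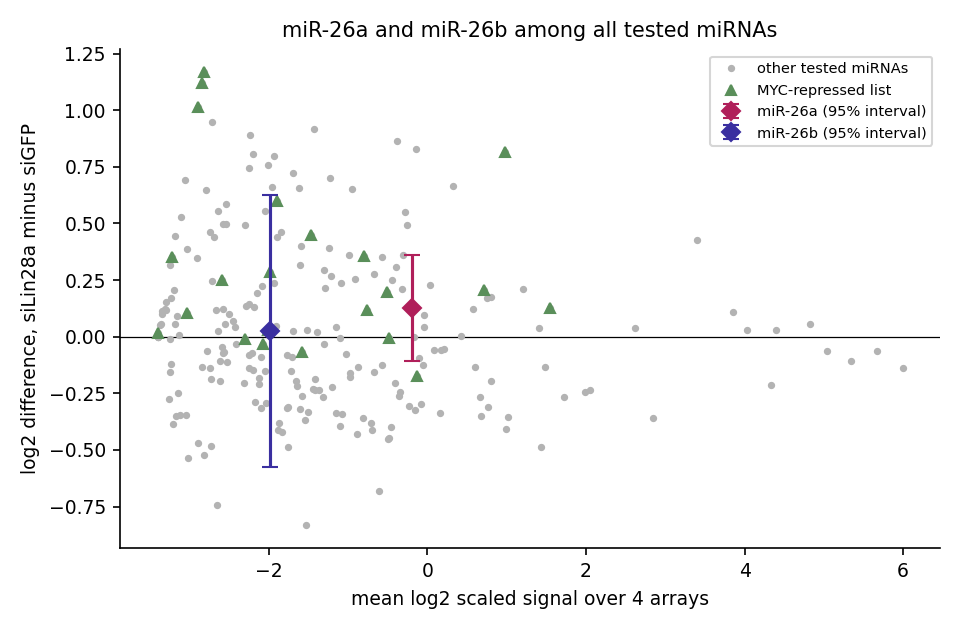
Log2 difference between siLin28a and siGFP (y axis) against the mean log2 scaled signal over the 4 arrays (x axis) for the 231 tested miRNAs. Diamonds with 95% intervals mark miR-26a at 0.13 and miR-26b at 0.02, green triangles mark miRNAs listed as repressed by MYC, and both miR-26 intervals include 0.

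Fitted probe by probe, the values differed little within a paralog. The 15-base and 16-base probes of miR-26a had log2 differences of 0.15 (SE 0.09) and 0.11 (SE 0.09), with limma adjusted p = 0.337 and 0.479 over 477 probes. The 19-base and 20-base probes of miR-26b had 0.01 (SE 0.22) and 0.03 (SE 0.20), with limma adjusted p = 0.979 and 0.929. None of the 4 probes was called, against 2 of 477 probes (0.419%), and 0 had an unadjusted limma p below 0.05. Under other settings 2 probes had a 95% interval that left out 0, though neither passed after adjustment. These were the 15-base probe of miR-26a with no scaling between arrays, at 0.35 (0.05 to 0.65), and the 20-base probe of miR-26b with normexp, at -0.20 (-0.38 to -0.02). The normexp offset of 50 units is close in size to the signals of that miR-26b probe. Its SE was 0.06 with normexp, so that interval is not like for like with the one from the reported fit. The groups lay apart, higher with siLin28a, for the 15-base probe, as for 31.4% of probes.

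The total gene signal is a value per miRNA from the scanner software. It is not the sum of the probe signals given above, has a scale of its own and is not scaled between arrays. For miR-26a it was 275 and 260 units with siGFP and 317 and 362 with siLin28a. The software's own errors on these were at most 26.1 units. For miR-26b it gave 93.8 and 69.5 against 91.0 and 100.5, with errors between 6.38 and 7.96. The siLin28a arrays were brighter as a whole, so the larger unscaled gap of miR-26a cannot be read as a change. Scaled in the same manner as the probes, the log2 differences of these signals were 0.06 and -0.03.

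The paralogs were then compared on every array. The log2 ratio of miR-26a to miR-26b was 1.55 and 1.92 with siGFP and 1.82 and 1.85 with siLin28a, which corresponds to signal ratios of 2.93, 3.77, 3.52 and 3.61. The miR-26a probes were thus brighter on all 4 arrays, which compares probes of unequal length and is no ratio of molecules. Both siLin28a ratios lay between the siGFP ratios. The mean log2 ratio was 1.73 ± 0.26 with siGFP and 1.83 ± 0.03 with siLin28a (SD, n = 2 each). The difference between these means was 0.10 (exact permutation test over arrays, two-sided, p = 1.00, where 0.333 is the smallest possible). It was smaller than the gap between the 2 siGFP ratios.

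A scale factor common to an array cancels in this ratio. An offset, such as the 50 units added with normexp, does not cancel, and it weighs more on the dimmer miR-26b probes. The difference of the ratio between groups was 0.14 with quantile normalization and 0.21 with normexp. With both settings the siLin28a ratios lay above both siGFP ratios (exact permutation p = 0.333 in each, the smallest possible). It was 0.28 without siGFP replicate 2 and -0.08 without siGFP replicate 1. Taken as 4 pairs of 1 probe from each paralog, the difference between groups ranged from 0.07 for the 16-base and 20-base probes to 0.13 for the 15-base and 19-base probes. With 2 arrays a group the permutation test could not pass 0.05 whatever the values, so it does not settle whether the 2 paralogs changed unequally.

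**Figure D3:**
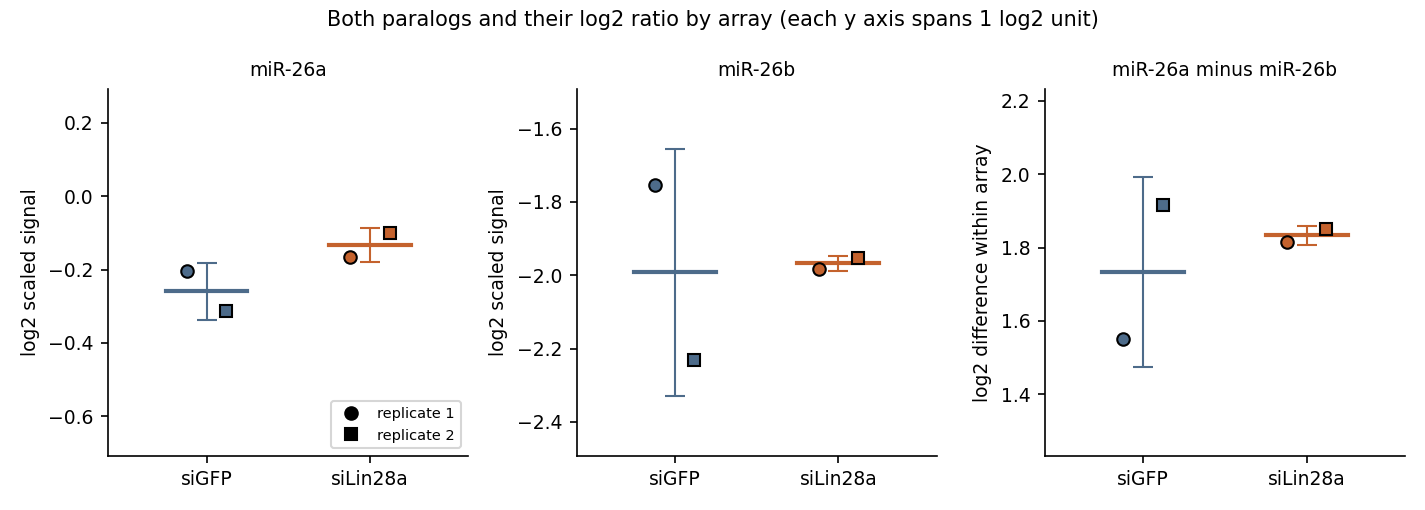
Log2 scaled signal of miR-26a and miR-26b and the log2 ratio between them (y axes, each spanning 1 log2 unit) for siGFP and siLin28a (x axis). Circles are replicate 1, squares replicate 2, thick lines group means and bars the SD of 2 arrays. The siGFP points of miR-26b, at -1.75 and -2.23, enclose the siLin28a points, as they do for the ratio.

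The other strand of the Mir26b hairpin, miR-26b*, which is usually degraded after processing, had 4 probes. None was well above background on any array, and its total gene signal lay between -2.48 and -0.83 units, with errors of 2.39 to 3.02. It was not called detected on any array, so no fold was computed. The array had no such starred name for the 2 miR-26a hairpins, so their other strands were not analysed here.

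The miRNAs whose pattern over the 4 arrays lay nearest to each paralog were sought among the 229 other tested miRNAs, as the root mean square distance between log2 values centred on their own means. For miR-26a these were miR-15b, a repressor of cell cycle genes, at a distance of 0.02 (log2 difference 0.12, SE 0.06), miR-672 at 0.02 (log2 difference 0.09, SE 0.06) and miR-872 at 0.04 (log2 difference 0.11, SE 0.04). The median distance was 0.19. As all 3 were chosen on the same 4 arrays, group differences close to that of miR-26a follow from the choice. miR-672 and miR-872 had mean log2 levels of -3.16 and -3.34, close to the floor of -3.40 applied to dim signals. For miR-26b they were miR-878-3p at 0.08, miR-376c at 0.10 and miR-148a at 0.10, against a median of 0.25, with log2 differences of -0.05 (SE 0.17), -0.14 (SE 0.20) and -0.12 (SE 0.12). These 3 were chosen on the same 4 arrays, so sharing the siGFP gap of miR-26b follows from the choice. They were higher on siGFP replicate 1 than on replicate 2, by log2 values of -2.39 and -2.75 for miR-878-3p, -2.43 and -2.91 for miR-376c and -3.02 and -3.32 for miR-148a. miR-26b itself lay at 0.14 from miR-26a, and 74 of the 229 miRNAs were nearer to miR-26a than its paralog was, while 14 were nearer to miR-26b than miR-26a was.

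Among other miRNAs known to be repressed by MYC, 22 of 27 listed were tested, and 2 passed, let-7a and let-7f, both higher. Each siGFP value of both was the floor itself, which sets the spread of that group to 0, so the log2 differences of 1.12 and 1.17 and the limma adjusted p of 0.0210 all rest on the floor. Before adjustment 7 of the 22 had a limma p under 0.05, against 57 of all 231. With the arrays scaled over all probes 0 of the 22 passed limma and 6 had a p under 0.05 before adjustment, against 0 and 78 of all 231. The brightest member, miR-16, which restrains cell division, differed by 0.13 on the log2 scale (SE 0.06, limma adjusted p = 0.265), the same to 2 decimals as miR-26a. Of the 22, 5 let-7 members passed the filter on dim signals through the siLin28a arrays alone and could only be higher. Of the 17 well above background on all 4 arrays, 0 passed limma and 3 had a p under 0.05 before adjustment, against 0 and 47 of the 209 miRNAs that met the same condition. Of these 17, 12 differences were above 0 and 10 members were higher without overlap, against 96 and 59 of the 209. Their median difference was 0.13, against -0.05 over the 209. The median over all 22 was 0.20, and it was 0.03 with the arrays scaled over all probes, where the median of all tested miRNAs moved from 0.00 to -0.16.

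Of the miRNAs known to target Ezh2 besides miR-26, 7 of 11 listed were tested. The 2 that passed, against 2 of all 231, were the same let-7a and let-7f, since let-7 members make up most of this list. miR-101a, the brightest tested member, had log2 values of -0.49 and -0.48 with siGFP and 0.04 and -0.29 with siLin28a. Its difference was 0.36 (SE 0.14, limma adjusted p = 0.211). Its paralog miR-101b had a difference of -0.08 (SE 0.15, limma adjusted p = 0.751). The median of the 7 was 0.36, with 5 that could only be higher, against 0.00 over all tested miRNAs. With the arrays scaled over all probes 0 of the 7 passed limma, and their median was 0.18, against -0.16. Of the 2 well above background on all 4 arrays, miR-101a and miR-101b, 0 passed.

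**Figure D4:**
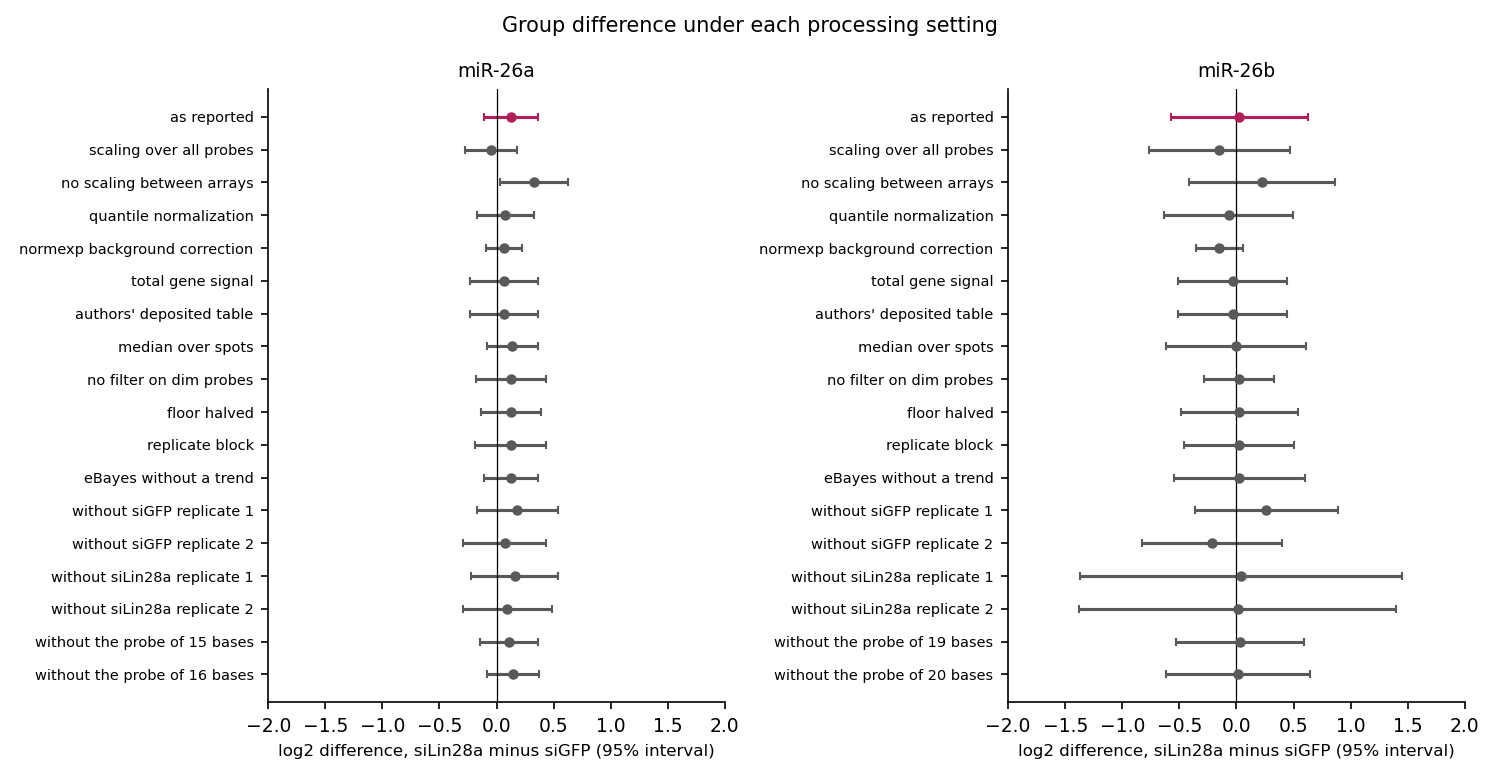
Log2 difference between siLin28a and siGFP (x axis) for miR-26a and miR-26b under each processing setting (y axis), as points with 95% intervals from limma. The value as reported is in red. For miR-26a the points run from -0.05 to 0.33, and for miR-26b from -0.21 to 0.26, on both sides of 0.

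Relative to the median of all tested miRNAs under the same setting, miR-26a had a positive difference in 16 of 16 settings, from 0.05 to 0.18, and miR-26b in 12 of 16, from -0.23 to 0.26. The settings reuse the same 4 arrays, so these counts are not counts of separate tests. No filter, the halved floor, the replicate block and eBayes without a trend cannot change either paralog's own difference. The deposited table holds the total gene signals rounded. The miR-26a adjusted p ranged from 0.144 to 1.00 and that of miR-26b from 0.445 to 1.00 over the alternatives. No setting brought either paralog past the threshold.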

How the data were processed

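Per the labels, 100 ng of total RNA was labelled with Cy3 for each of 4 Agilent 1-colour miRNA arrays. The deposited scanner files hold linear intensity values. Per the file headers they came from Feature Extraction 9.5.1.1 (9.5.3.1 in the submitters' processing notes), and the processed intensity is the spot mean minus a background surface. All 4 arrays lay on 1 slide and were scanned together, so neither gives a batch. The authors' deposited table holds total gene signals rounded to 1 decimal.

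Outlier spots were left out and spots averaged per probe. The 75th percentile over the 425 probes that all arrays showed well above background (in at least 50% of spots) served as scale factor, and signals were divided by it, floored at 0.0948 and taken to log2. Kept were probes above background in this sense on each array of at least 1 group (477 probes, 231 miRNAs), and the probes of a miRNA averaged. The test was limma 3.58.1 in R 4.3.3 (eBayes with a trend, 2 residual and 1.64 prior degrees of freedom, two-sided, Benjamini-Hochberg over all miRNAs). The fit was tested on simulated data. The number of arrays limits precision. Named were the members, the other strand of the Mir26b hairpin, the 3 nearest patterns for each, and the called and brightest members of each list, with miR-101b added after its value was seen. Members and lists were chosen with earlier results of these data known.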

Additional observations from a re-analysis of the deposited data

How the results depend on the processing

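Neither paralog passed the threshold under any alternative. For miR-26a the log2 difference was -0.049 with the arrays scaled over all probes (probes -0.029 and -0.069), and it kept its sign in the other 16 alternatives, some of which cannot change it, at 0.33 (95% interval 0.03 to 0.63) with no scaling between arrays, 0.075 with quantile normalization and 0.064 with normexp. For miR-26b it was -0.15 with that scaling (probes -0.16 and -0.14), -0.067 with quantile normalization (probes -0.092 and -0.042), -0.15 with normexp (probes -0.095 and -0.20), -0.034 with the total gene signal, -0.034 with the authors' deposited table and -0.0016 with the median over spots (19-base probe -0.037). With 1 array left out, miR-26a ranged from 0.07 to 0.18, miR-26b from -0.21 to 0.26 (19-base probe -0.25 to 0.28, and -0.018 without siLin28a replicate 2; 20-base probe -0.18 to 0.25) and the difference of their log2 ratio from -0.082 to 0.28. These fits kept the scaling and filter of all 4 arrays and assume that a lone array varies like the other group. The number of miRNAs called by limma, 2 as reported, was 0 with the scaling over all probes (78 at an unadjusted p below 0.05), 0 with normexp (23), 8 with the total gene signal, 8 with the authors' deposited table, 48 with no filter on dim probes, 10 with the floor halved and 0 to 11 with 1 array left out (34 and 19 at an unadjusted p below 0.05 in the fits with 0). The causes were not tested. With the replicate number as a block, miR-26a was at 0.13 (limma adjusted p = 0.401) and miR-26b at 0.02 (limma adjusted p = 0.926). The count stayed at 2, while 80 miRNAs had an unadjusted limma p below 0.05, against 57 as reported. Deviations of same-numbered arrays correlated at 0.71 over 231 miRNAs. With 2 pairs and no label that says what a number marks, it is not known whether the numbers pair the arrays. Not run were the ratio from probes of equal length, since there are none, and the fit over probes with no filter, where most values sat at the floor.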
